A study of Rattus norvegicus with 10 samples.

Results

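The genes described here encode isoforms of 4 small subunits of cytochrome c oxidase: Cox4i1 and Cox4i2, Cox6a1 and Cox6a2, Cox7a1 and Cox7a2, and Cox8a and Cox8b. They were chosen by gene symbol, and 7 of the 8 had a probe set, 8 probe sets in all, among 43686 probe sets and 19027 genes with a symbol. No probe set carried the symbol Cox7a1, so the Cox7a pair could not be compared, and 3 of 4 pairs were. RNA came from the lateral gastrocnemius, a calf muscle of mixed but mainly fast fibres, of the left leg. The 5 young males were labelled 6 months of age and were 7 months old when killed, and the 5 aged males were labelled 24 months and were 28 months old. All were Sprague Dawley rats, untreated as far as the labels say, on free food and water, with 1 array per animal. The aged rat was a model of sarcopenia, the age-related loss of muscle, and the labels name no engineered allele. Because the tissue is whole muscle, it holds vessels, nerve, connective tissue and immune cells besides fibres.

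Cytochrome c oxidase, complex IV, is the last enzyme of the respiratory chain: it takes electrons from cytochrome c, hands them to oxygen and pumps protons. Its catalytic core is encoded by mitochondrial DNA and is surrounded by small subunits encoded in the nucleus, which serve assembly, stability and control. For several of these the genome holds a form found in most tissues, also called the liver form, and a form that heart and skeletal muscle switch on as they mature. Cox6a2, Cox7a1 and Cox8b are the muscle forms, and Cox6a1, Cox7a2 and Cox8a are their ubiquitous partners. The Cox4 pair is of another kind: Cox4i1 is the common form, in muscle too, and Cox4i2 is known from lung and from the mural cells of vessels and responds to oxygen.

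Median intensities of the arrays ran from 13.46 to 13.74 in aged and from 13.79 to 13.99 in young animals. The difference was small, but every aged array lay below every young one. Any 2 arrays correlated at 0.977 to 0.995 across probe sets. Aged replicate 1 stood apart from the other aged arrays: on the first principal component it lay at 7.8, the other 4 between 34.7 and 46.8 and the young arrays between -42.9 and -27.2. The names of 2 aged columns contain the word replacement, and by their values these are aged replicates 4 and 5. Of 12 markers of skeletal muscle 11 were measured. Ckm, muscle creatine kinase, lay at a mean log2 intensity of 14.57 in young and 14.56 in aged animals. Its mean intensity of 24263 was close to the highest value in the data, 25989, and whether it reached a ceiling was not tested. The heart myosin Myh6 lay at 3.93 and 4.16, near the median probe set.

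Within the pairs, aged muscle held more transcript of the ubiquitous forms Cox8a and Cox6a1, with no detected change of their muscle partners Cox8b and Cox6a2, and less of Cox4i2. In limma's fit across all probe sets 2 of the 7 genes rose, 1 fell and 4 did not pass an adjusted p of 0.05. Of all genes with a symbol, counted once by the probe set with the highest mean, 22.5% passed, 13.8% higher and 8.7% lower. Of the 403 probe sets brighter than that of Cox8a, 50.6% passed. The median log2 fold change was -0.09 over the 7 genes and -0.01 over all genes.

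**Figure D1:**
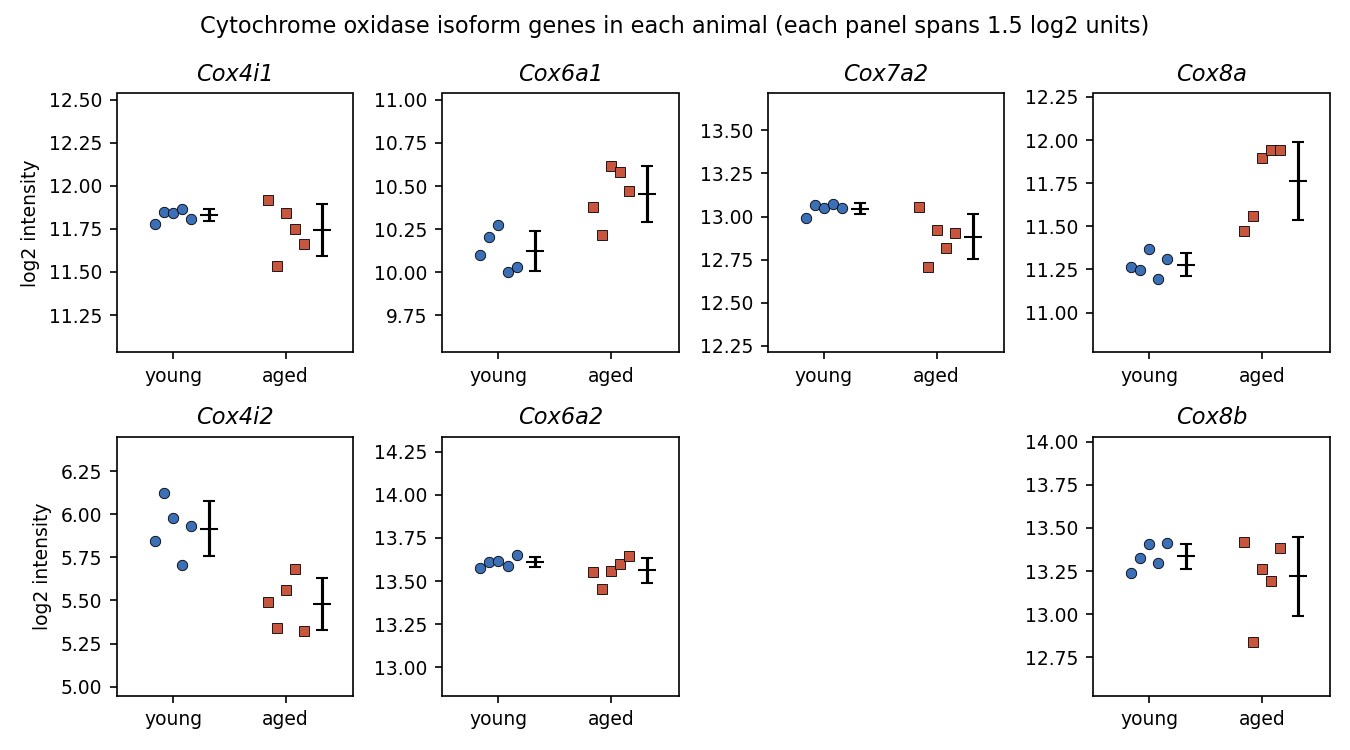
Log2 intensity of the 7 isoform genes in each animal (circles, young; squares, aged; bars, mean and SD, n = 5 per group), with the common forms above and their partners below; every panel spans the same range of log2 units. The aged animals lie above every young one for Cox8a and below every young one for Cox4i2, while the groups overlap for the other 5 genes.

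Cox8a encodes the ubiquitous form of the smallest subunit, a single membrane helix at the edge of the enzyme. Its intensity was 2458.8, 2432.8, 2649, 2347 and 2537 in young replicates 1 to 5 and 2839.6, 3017, 3805, 3944 and 3939 in aged replicates 1 to 5. Every aged animal was above every young one, and aged replicates 3, 4 and 5 were well above replicates 1 and 2. The change was 1.40-fold (0.48 ± 0.10 SE on the log2 scale, 5 animals per group, adjusted p = 0.00518 in limma's fit). Groups failed to overlap in 17.3% of all genes. A further probe set of Cox8a gave nothing to set beside this, since it lay at intensities of 4.8 to 6.2, below the median of every array. The mean over both probe sets still passed but put the log2 fold change at 0.22 (adjusted p = 0.0409 in limma's fit).

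Cox8b, the muscle form of the same subunit, lay among the brightest probe sets of the array and did not pass. Its intensity was 9672, 10259, 10849, 10066 and 10885 in young replicates 1 to 5 and 10939, 7339, 9830.2, 9343 and 10698 in aged replicates 1 to 5. The groups overlapped, with aged replicate 2 the lowest of all 10 animals and aged replicate 1 the highest. The fold change was 0.92 with a 95% interval from limma of 0.79 to 1.07 (adjusted p = 0.502). The RefSeq promoters of the Cox8 genes are shown because Cox8a passed and its muscle partner did not. They are the 250 bases before the start of each gene in the rat assembly GRCr8, both on the minus strand, Cox8a at chr1:213833624-213833873 and Cox8b at chr1:205408274-205408523. Capitals mark exact matches, on either strand, to any of 7 short motifs, given after the sequences.
Cox8a: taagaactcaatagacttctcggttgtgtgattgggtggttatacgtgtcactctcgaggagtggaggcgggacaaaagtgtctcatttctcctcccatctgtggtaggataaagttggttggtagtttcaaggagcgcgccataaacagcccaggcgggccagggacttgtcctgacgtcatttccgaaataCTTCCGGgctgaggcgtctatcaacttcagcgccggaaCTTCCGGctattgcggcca
Cox8b: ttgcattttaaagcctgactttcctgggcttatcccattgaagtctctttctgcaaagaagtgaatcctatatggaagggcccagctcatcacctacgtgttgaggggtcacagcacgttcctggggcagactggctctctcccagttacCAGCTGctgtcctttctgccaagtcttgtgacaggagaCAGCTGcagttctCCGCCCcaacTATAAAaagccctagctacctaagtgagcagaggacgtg
The Cox8a window holds the ETS site CCGGAAG in 2 places and 15 CpG dinucleotides, and the Cox8b window holds the E-box CAGCTG in 2 places, the TATA box TATAAA and the GC box GGGCGG once each and 4 CpG dinucleotides. Of 33469 rat promoters of this length, 7.27% hold the ETS site, 11.97% this E-box, 12.93% the TATA box and 30.47% the GC box, and the median number of CpG dinucleotides is 5. The other motifs searched, a MEF2 site read as CTA and TAG with 4 bases between (3.41% of promoters), an NRF1 site read as GCGCA and GCGC with 1 base between (3.75%) and the YY1 site CAAGATGG (1.42%), were in neither window. These letters are a description of the windows, and no binding was measured.

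Cox6a1 and Cox6a2 encode the forms of a subunit that sits where the monomers of the enzyme meet and takes part in its control by ATP and ADP. The ubiquitous form Cox6a1 had intensities of 1095.9, 1179, 1239, 1025 and 1044 in young replicates 1 to 5 and of 1331, 1187, 1567, 1533 and 1421 in aged replicates 1 to 5. Aged replicate 2 fell among the young animals, and the other 4 aged animals lay above all of them. Cox6a1 rose 1.26-fold (0.33 ± 0.09 SE on the log2 scale, 5 animals per group, adjusted p = 0.0227 in limma's fit). This call was not firm: it was lost with quantile normalization (log2 fold change 0.27, adjusted p = 0.064), without aged replicates 4 and 5 (0.28, adjusted p = 0.123), and without young replicate 4, young replicate 5 or aged replicate 3, each on its own (adjusted p from 0.0578 to 0.0609 in limma's fit).

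The muscle form Cox6a2 varied least among animals of the 7 genes, with an SD of log2 intensity of 0.07 in aged and 0.03 in young animals. Its intensity was 12205, 12501, 12559.9, 12324 and 12868 in young replicates 1 to 5 and 12034, 11218, 12073, 12418 and 12809.9 in aged replicates 1 to 5. The groups overlapped, with aged replicate 2 again the lowest. The fold change was 0.97 with a 95% interval from limma of 0.89 to 1.06 (adjusted p = 0.68). Only 41 probe sets of the table were brighter than Cox6a2 and 59 brighter than Cox8b, and 19.5% and 22% of these passed, against 15% of all probe sets. The log2 fold changes ran from -0.31 to 0.53 among the 41, from -1.58 to 1.69 among the 403 probe sets brighter than Cox8a and from -2.09 to 3.94 among the 990 brighter than Cox6a1. The range was thus narrower among fewer and brighter probe sets, and whether signals there are compressed was not tested. The Cox6a2 promoter, 250 bases at chr1:192219717-192219966 on the minus strand of GRCr8, is shown as the muscle partner of a gene that rose, with capitals marking the E-box and the MEF2 site, once each.
Cox6a2: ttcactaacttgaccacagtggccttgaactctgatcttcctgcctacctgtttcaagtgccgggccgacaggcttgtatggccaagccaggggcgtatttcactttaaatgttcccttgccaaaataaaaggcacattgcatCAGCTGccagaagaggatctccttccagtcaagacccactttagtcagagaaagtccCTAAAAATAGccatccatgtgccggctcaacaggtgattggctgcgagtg
It holds 5 CpG dinucleotides and none of the other motifs. RefSeq windows were found for 6 of the 8 genes. Those of Cox4i1, Cox7a2 and Cox8a, all common forms, held 31, 23 and 15 CpG dinucleotides, and those of Cox6a2, Cox7a1 and Cox8b, all muscle forms, held 5, 4 and 4.

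Cox4 is the largest subunit encoded in the nucleus and carries sites at which ATP acts on the enzyme. The common form Cox4i1 ran from 3519 to 3727 in young and from 2962 to 3867 in aged animals, so the aged range enclosed the young one. It did not pass (fold change 0.94, 95% interval from limma 0.84 to 1.06, adjusted p = 0.505). The probe set of Cox4i2 was brighter than 75.7% of all probe sets. Its intensity was 57.5, 69.8, 63.2, 52.1 and 61.1 in young replicates 1 to 5 and 44.9, 40.5, 47.2, 51.4 and 40.0 in aged replicates 1 to 5. Every aged animal was below every young one, although aged replicate 4 and young replicate 4 were close. Cox4i2 fell 1.36-fold (-0.44 ± 0.09 SE on the log2 scale, 5 animals per group, adjusted p = 0.00657 in limma's fit).

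Cox4i2 is a gene of pericytes and vascular smooth muscle in other tissues, so the markers of those cells are set beside it. Of 12 such markers 10 were measured, of which 4 fell and 6 did not pass. Among all genes 8.7% were lower. Cnn1 and Tagln, smooth muscle proteins that bind actin, had log2 fold changes of -0.65 ± 0.14 SE (adjusted p = 0.00626) and -0.50 ± 0.12 (adjusted p = 0.0104). Rgs5, a regulator of G proteins in pericytes, fell too (-0.43 ± 0.12, adjusted p = 0.0274 in limma's fit), as did Notch3, a receptor of mural cells (-0.26 ± 0.08, adjusted p = 0.0498). Higd1b, a gene of pericytes, did not pass (-0.33 ± 0.11, adjusted p = 0.0548 in limma's fit), and neither did Pdgfrb, Abcc9 and Kcnj8, with log2 fold changes between -0.0049 and 0.014. Myh11 (-0.23 ± 0.12) and Cspg4, which went the other way (0.13 ± 0.09), did not pass either. The summed intensity of the 10 markers ran from 1226 to 1672 in aged and from 1589 to 1816 in young animals. The brightest markers, Abcc9 (mean intensity 558) and Tagln (366), weigh most in this sum. Without aged replicates 4 and 5, and in several fits without 1 array, 2 in place of 4 markers fell. Of 8 endothelial markers 0 passed in limma's fit, and at an unadjusted p under 0.05 there 1 was higher and 2 were lower. The part of these cells in the fall of Cox4i2 was not tested, and in whole muscle fewer cells of a type and less RNA per cell cannot be told apart.

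Cox7a2 encodes the ubiquitous form of a subunit that takes part in dimers and in supercomplexes with the other respiratory enzymes. Its intensity ran from 8133 to 8622 in young and from 6677 to 8528 in aged animals, and all aged animals but replicate 1 were below every young one. It did not pass (fold change 0.89, 95% interval from limma 0.802 to 0.995 before adjustment, adjusted p = 0.159). Unlike Cox8a and Cox6a1, the ubiquitous forms Cox7a2 and Cox4i1 thus had fold changes below 1.

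The ratio of the partners was taken within each animal, which removes any scale factor of an array. It does not remove a difference between arrays that varies with intensity. Probe sets differ in how brightly they bind, so the ratio itself is no count of one transcript per other, and only its difference between the age groups was tested. The ratio of Cox8b to Cox8a was 3.93, 4.22, 4.10, 4.29 and 4.29 in young replicates 1 to 5 and 3.85, 2.43, 2.58, 2.37 and 2.72 in aged replicates 1 to 5. All aged animals were below all young ones, but aged replicate 1 lay next to the young group and apart from the other 4. The mean ratio was 1.52-fold lower in aged muscle (log2 difference -0.60 ± 0.13 SE, n = 5 per group, exact two-sided permutation p = 0.00794, the smallest that 5 against 5 animals allow; adjusted over the 3 pairs compared, 0.0119).

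The ratio of Cox6a2 to Cox6a1 was 11.1, 10.6, 10.1, 12.0 and 12.3 in young replicates 1 to 5 and 9.04, 9.45, 7.70, 8.10 and 9.01 in aged replicates 1 to 5. The groups did not overlap, and here aged replicate 1 was among its own group. The mean ratio was 1.30-fold lower in aged muscle (log2 difference -0.38 ± 0.08 SE, exact two-sided permutation p = 0.00794, adjusted 0.0119). With quantile normalization the log2 difference of this ratio was -0.27. The ratio of Cox4i2 to Cox4i1, on the log2 scale, ran from -6.16 to -5.73 in young and from -6.43 to -6.07 in aged animals. These groups overlapped by young replicate 4 and aged replicate 4, and the mean ratio was 1.27-fold lower in aged muscle (log2 difference -0.35 ± 0.09 SE, exact two-sided permutation p = 0.0159, adjusted 0.0159). In the Cox8 and Cox6a pairs the partner that passed in limma's fit was the ubiquitous form in the denominator, and in the Cox4 pair it was Cox4i2 in the numerator. All 3 ratios kept their direction and passed in each of the 14 alternatives. For the Cox8 and Cox6a ratios, whose groups did not overlap, passing without any 1 array was fixed in advance. Without aged replicates 4 and 5 their exact p before adjustment was likewise bound to lie under 0.05. For the Cox6a and Cox4 pairs, with 1 probe set per gene, the mean over probe sets was no real alternative. The mean over both Cox8a probe sets moved the Cox8 difference furthest, to -0.33 on the log2 scale. With the brightest probe set the Cox8 difference was the largest of the 3, and with that mean it was the smallest. That mean takes in the Cox8a probe set below the median of every array, so its smaller difference gives no ranking of the pairs.

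**Figure D2:**
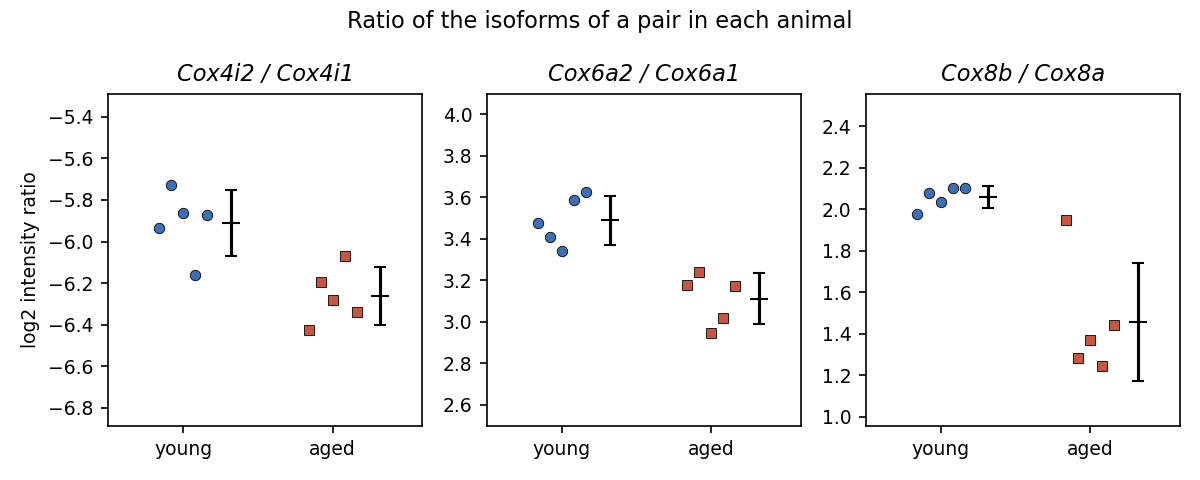
Log2 ratio of the intensities of the isoforms of a pair in each animal (circles, young; squares, aged; bars, mean and SD, n = 5 per group). Aged animals lie below all young ones for Cox6a2 over Cox6a1 and for Cox8b over Cox8a, where aged replicate 1 stands at 1.95 near the young group, and the groups overlap slightly for Cox4i2 over Cox4i1.

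The other subunits of complex IV give the level against which the isoforms moved. Those outside the 4 pairs are called unpaired here, although Cox7b and Ndufa4 have other isoforms, Cox7b2 and Ndufa4l2, which were not measured. Of 7 nuclear subunits listed outside the pairs, 6 were measured: 4 fell and 2 did not pass, with a median log2 fold change of -0.32. Among all genes 8.7% were lower. All 6 were brighter than Cox4i1, and 89 of the 339 probe sets brighter than Cox4i1 were lower. Cox5a and Cox5b, subunits on the matrix side, had log2 fold changes of -0.32 ± 0.08 SE (adjusted p = 0.0134) and -0.33 ± 0.11 (adjusted p = 0.0613, not passed, in limma's fit). Of the membrane subunits Cox7c, Cox7b and Cox6c fell, by 0.33, 0.33 and 0.24 on the log2 scale, and Ndufa4, first assigned to complex I, did not pass (-0.15 ± 0.07). Cox7c passed in all 17 alternatives, but Cox7b and Cox6c each missed the threshold in 13 of 17, among them median centring (adjusted p = 0.0709 and 0.0806 in limma's fit) and the replicate number as a block (0.0832 and 0.0799). The count was not firm: 1 in place of 4 fell without aged replicates 4 and 5, 5 fell without aged replicate 1, and 2 fell without any 1 of the other 9 arrays.

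The mean shift of these 6 subunits from the young mean was -0.03, -0.43, -0.28, -0.37 and -0.28 in aged replicates 1 to 5 on the log2 scale, and between -0.03 and 0.03 in the young animals. Aged replicate 1 was thus within the young range, and aged replicate 2 was lowest. Measured against this mean in each animal, Cox8a was 0.76 ± 0.32 (SD, n = 5) higher and Cox6a1 0.61 ± 0.22 higher in aged animals than in young ones, with all aged animals above all young ones. Cox4i1 (0.19 ± 0.09) and Cox7a2 (0.12 ± 0.05) were also above it in all aged animals. The mean itself was 0.28 lower in aged animals, so a gene that fell less also lies above it. Taken alone, Cox4i1 and Cox7a2 had log2 fold changes of -0.09 and -0.16. How many of all genes lie above this mean in the same way was not counted. Cox6a2 (0.23 ± 0.15), Cox8b (0.16 ± 0.15) and Cox4i2 (-0.16 ± 0.21) overlapped the young animals. These relative values were not tested.

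**Figure D3:**
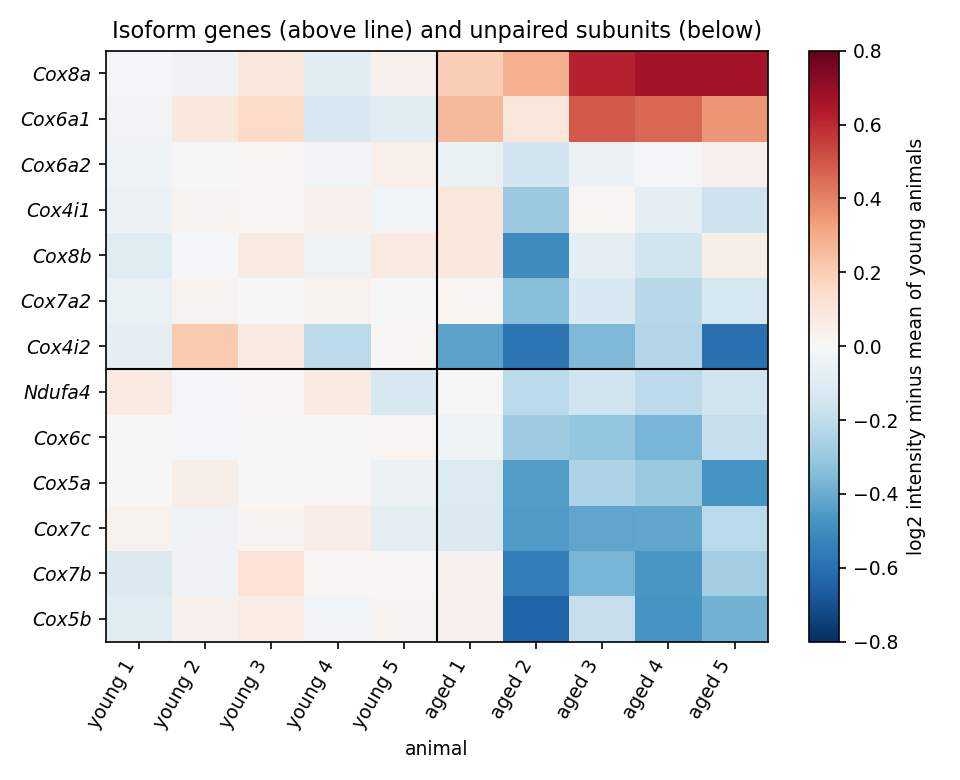
Difference of log2 intensity from the mean of the young animals, for the 7 isoform genes (above the line) and the 6 unpaired complex IV subunits (below it) in each animal; red is higher and blue lower. Cox8a and Cox6a1 are red in all 5 aged animals, the unpaired subunits are blue in aged replicates 2 to 5, and aged replicate 1 is pale in most genes.

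The SD between animals was larger in aged than in young muscle for all isoform genes but Cox4i2; this was not tested. The SD of log2 intensity of Cox4i1 was 0.15 in aged and 0.03 in young animals, a ratio of 4.42 that exceeded the ratio of 97.5% of probe sets. The same ratio was 3.97 for Cox7a2, 3.47 for Cox8a, 3.16 for Cox8b, 2.44 for Cox6a2, 1.40 for Cox6a1 and 0.97 for Cox4i2, against a median of 1.13 over all probe sets.

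Which genes varied together among animals of one age was described by Pearson's r over the 10 arrays after each age group was centred on its own mean. These arrays share their scaling, so part of any r may be common to many genes. With the 6 unpaired subunits, Cox7a2 had a median r of 0.73, Cox4i1 0.65 and Cox8b 0.60, whereas Cox6a2 had 0.19, Cox6a1 0.04, Cox4i2 -0.11 and Cox8a -0.34. Among the isoform genes themselves r was 0.885 for Cox4i1 with Cox7a2, 0.873 for Cox7a2 with Cox8b, 0.806 for Cox6a2 with Cox8b, 0.725 for Cox8a with Cox6a1, 0.696 for Cox6a1 with Cox4i2 and 0.683 for Cox8a with Cox6a2. Values of this size thus joined genes that rose, genes that fell and genes that did not pass. Among all genes with a symbol, Cox4i1 was closest to Got1, an aspartate aminotransferase (r = 0.98), and Pecr, a peroxisomal reductase (0.96). Cox7a2 was closest to Hddc3 (0.98), Idh3g, a subunit of isocitrate dehydrogenase (0.98), and Atp5mk, a small subunit of ATP synthase (0.97). Cox8b was closest to Ndufa11, a complex I subunit (0.96), Idh3g (0.95) and Ino80b (0.94). Nearest to Cox8a were Cog2 (0.94), Alms1 (0.93) and Ubtd2 (0.93), to Cox6a1 Frmd4a (0.97), Tada3lb (0.93) and Mrgprd (0.92), to Cox6a2 Tyw3 (0.95), Il2rb (0.93) and Serpinb8 (0.92), and to Cox4i2 Or5al7 (0.96), Lima1 (0.94) and the slow myosin Myh7 (0.93). Over 10 arrays and 19027 genes, values of this size are the extreme of a wide distribution.

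Of 25 assembly factors of the enzyme 18 were measured: 4 fell and 14 did not pass, with a median log2 fold change of -0.07. Of all genes 22.5% passed in either direction and 8.7% were lower, so the share of assembly factors that passed was near that of all genes. The 4 were Cox19, a copper-related factor of the intermembrane space (-0.48 ± 0.09 SE), Lrpprc, which stabilises mitochondrial transcripts (-0.44 ± 0.07), Cox20, a chaperone of a core subunit (-0.34 ± 0.08), and Cox11, which delivers copper to the core (-0.23 ± 0.06). Without aged replicates 4 and 5, 2 of them fell. Among 3 genes of cytochrome c, the electron donor of the enzyme, Cycs, its somatic form, had a log2 fold change of -0.67 ± 0.14 (adjusted p = 0.00488) and Hccs, which attaches its heme, -0.56 ± 0.16 (adjusted p = 0.0291 in limma's fit). Cyct, the testis form, lay at a log2 intensity of about 2, below the median of every array, and did not pass. Of 5 other isoform genes of the enzyme 3 were measured, and Cox7a2l, Cox6b2 and Cox8c did not pass, the last at a log2 intensity under 3. The 3 core subunits encoded by mitochondrial DNA were not analysed here.

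**Figure D4:**
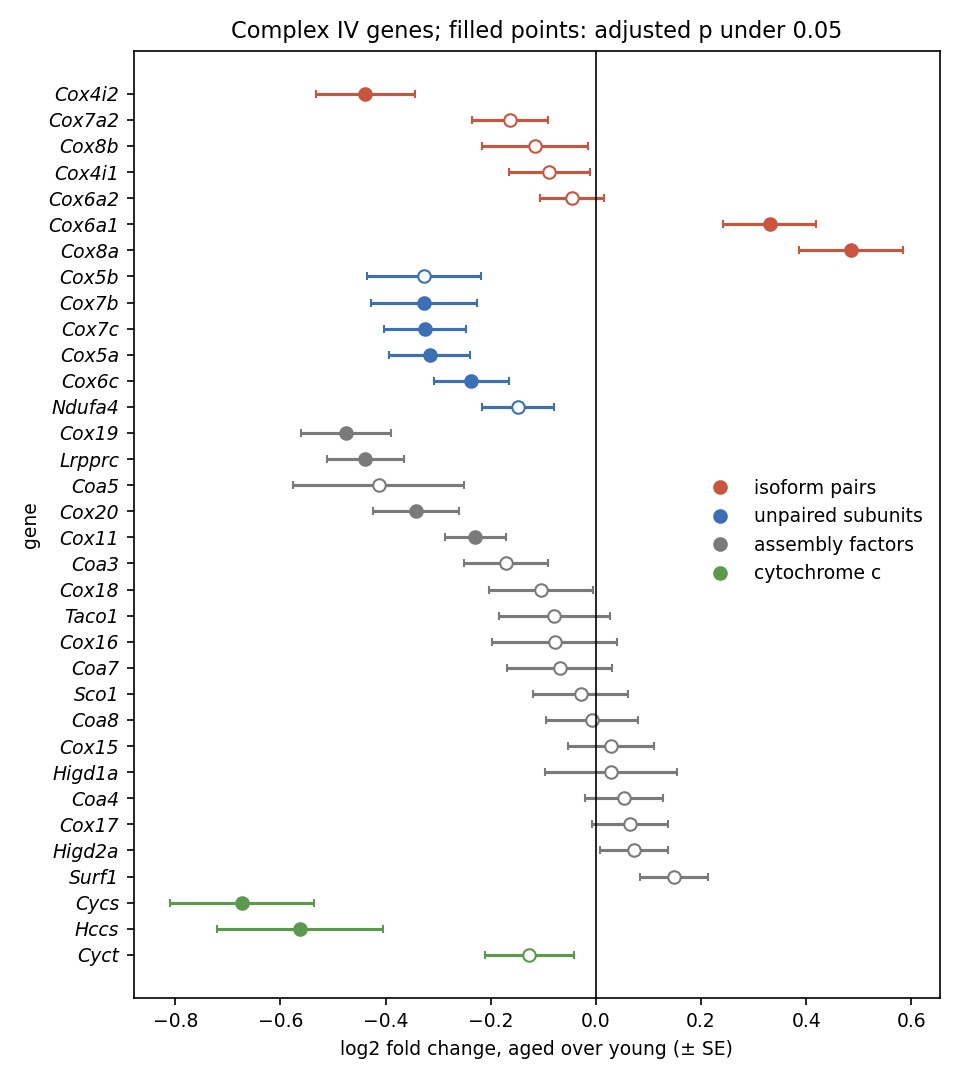
Log2 fold change of aged over young muscle with its SE from limma (n = 5 per group) for the isoform pairs, the unpaired subunits, the assembly factors and the cytochrome c genes; filled points passed an adjusted p of 0.05. Cox8a and Cox6a1 are the filled points to the right of 0, and all other filled points lie to the left.

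Cells other than fibres also express the ubiquitous forms, so their markers are given beside the rise of Cox8a and Cox6a1. Among all genes 13.8% were higher and 8.7% lower. Of 8 macrophage markers 6 rose and 2 did not pass, and their summed intensity ran from 3071 to 9607 in aged and from 875 to 1937 in young animals. Lyz2, a lysozyme, rose 3.68-fold and C1qa, a complement component, 2.28-fold. Lyz2 was the brightest of the 8 (mean intensity 1265) and weighs most in their sum. Of 8 fibroblast markers 2 rose, 1 fell and 5 did not pass, with a summed intensity of 8689 to 11927 in aged and 7806 to 10762 in young animals. Of 8 fat cell markers 1 rose, Cfd, the complement factor adipsin (2.46-fold), and 7 did not pass, while the sum ran from 2374 to 4173 in aged and from 1804 to 2244 in young animals. At an unadjusted p under 0.05 in limma's fit 4 of the 8 were higher and 0 lower. Besides Cfd these were Adipoq (log2 fold change 0.92 ± 0.35 SE), Cidec (0.81 ± 0.34) and Fabp4 (0.26 ± 0.11). Pck1, Lep, Lipe and Plin1 had log2 fold changes of 0.25, 0.09, 0.05 and -0.04. Plin1 and Lep lay near the median probe set in both groups, at log2 intensities of 3.98 and 3.77 in aged animals. The part of these cells in the rise of Cox8a and Cox6a1 was not tested.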

How the data were processed

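Total RNA of each muscle was turned into biotin-labelled complementary RNA and hybridised to 1 expression array per animal, per the labels' protocols. The authors deposited normalized probe set intensities on a linear scale in 2 tables of the series. The submitters' processing notes name RMA, without version or settings. This method corrects background and equalizes the arrays' distributions before it summarises probes. The deposited values still differed in array median, from 13.46 to 13.99. RMA hides a change shared by most transcripts and compresses differences of dim probe sets. The array's annotation and build are not given in the sources used here, and no detection measure came with the values.

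Of the 2 tables, one pairs 43686 probe sets with symbols and gives each column's age group; the other holds the same values for 43685 of them, per replicate. The first was used for the main fit and the second for values per animal. Symbols were brought up to date through RefSeq names of GRCr8: of 19069 distinct symbols 13892 were current, 3266 were replaced and 1911 kept, while 22 more had been turned into dates and 16184 probe sets carried none. A gene is represented by its brightest probe set. Log2 intensities, with no pseudocount or filter, were fitted with limma 3.58.1 in R 4.3.3 (lmFit, eBayes, two-sided), with Benjamini-Hochberg adjustment over all 43686 probe sets. Every adjusted p and every SE given with a gene come from limma. Ratios within pairs were compared by exact permutation, two-sided, with every way of dividing the animals into 5 and 5. The design named 4 pairs, and p-values were adjusted over the 3 that could be compared. The fit was tested on simulated data with 200 changed probe sets. Promoter letters came from RefSeq, build GRCr8.

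The members, the 16 lists of markers and related genes and the tests were chosen with earlier results of these data known. All probe sets of the isoform genes are named. Of a list of up to 12 genes any may be named, of longer lists the 4 largest changes that passed, and for likeness the 3 genes with the highest r, of which 1 is not reported here. Genes named outside this rule were chosen after their values were seen. Animals are separate, and the number of arrays limits the precision.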

Additional observations from a re-analysis of the deposited data

Results flagged for a closer look

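Among 108 groups of 5 animals examined for complex IV genes, their ratios and the markers set beside Cox4i2, 5 held 1 animal far from the other 4, and chance alone gives about 1 in 20 groups. The ratio of Cox8b to Cox8a in aged replicate 1, 1.95 on the log2 scale, was one of them, with the next aged animal at 1.44 and the lowest at 1.24. Aged replicate 1 was also far above the other aged animals for the unpaired subunit Ndufa4 (log2 intensity 12.89, next 12.73) and for the assembly factor Cox20 (10.97, next 10.72). Aged replicate 4 was far below the others for the assembly factors Cox18 (log2 intensity 5.68, next 6.03) and Cox16 (8.65, next 9.10), genes that did not pass and are named for this reason. Without aged replicate 1 the log2 difference of the Cox8 ratio was -0.72 in place of -0.60.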

How the results depend on the processing

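Each isoform gene was refitted under 17 alternatives, Cox8a under 18 and each pair ratio under 14. Cox8a, Cox4i2 and the 3 ratios passed in the same direction in all of theirs, and Cox4i1, Cox7a2 and Cox8b passed in none. For the Cox8 and Cox6a ratios, whose groups did not overlap, the fits without 1 array could not have failed. Without the replacement arrays their exact p before adjustment was likewise bound to lie under 0.05. Cox6a1 kept its direction but missed the threshold with quantile normalization (log2 fold change 0.27) and without the aged arrays marked as replacements (0.28). It also missed the threshold in 3 of 10 fits without 1 array (0.29 to 0.31). Across all 10 of these fits its value ran from 0.29 to 0.39. Cox6a2, which passed nowhere, turned sign with quantile normalization (0.0086). Across the fits without 1 array the log2 fold change ran from 0.44 to 0.56 for Cox8a and from -0.49 to -0.39 for Cox4i2. The number of probe sets called lower in aged muscle was 3001, 1846 without the replacement arrays, a fit with fewer animals, and 2213 to 3527 without 1 array. Without the replacement arrays 1 unpaired subunit, 2 assembly factors and 2 pericyte and smooth muscle markers fell, in place of 4 each. Leaving out 1 array gave 2 to 5 unpaired subunits, 2 to 4 pericyte and smooth muscle markers, 4 to 5 assembly factors and 4 to 6 macrophage markers. These list counts were chosen after seeing the data. With the replicate block 5551 probe sets passed in place of 6536, no isoform gene changed its call, and the unpaired subunits Cox7b and Cox6c lost theirs. The deviations of same-numbered animals correlated between -0.117 and 0.027, so no pairing by number was seen in the values. These correlations cannot tell whether same-numbered animals were handled together. Without a detection measure, Cox8c, Cyct and the dim Cox8a probe set have no limit.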

Other observations

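Of 9 factors that drive nuclear respiratory genes 6 did not pass, 2 fell and 1 rose, where 22.5% of all genes passed. Ppargc1a, which encodes the coactivator PGC-1alpha that muscle activity induces, fell 2.61-fold (-1.39 ± 0.21 SE on the log2 scale, adjusted p = 0.000938 in limma's fit), and its relative Ppargc1b fell 1.67-fold. Pprc1, the third member of that family, rose 1.19-fold. The transcription factors Nrf1, Gabpa, Esrra and Yy1 and the mitochondrial DNA factor Tfam did not pass. Of 6 genes that act on Cox4i2 or Cox4i1 in low oxygen 1 fell, Egln1, an oxygen-sensing hydroxylase (-0.37 ± 0.07), while Hif1a, Rbpj, Chchd2, Cxxc5 and the protease Lonp1 did not pass.

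Fibre type genes give the setting of these values, since slow fibres hold more mitochondria. Among all genes 13.8% were higher and 8.7% lower. Of 10 slow fibre genes 1 rose, Casq2, a calcium store protein (2.03-fold), and 9 did not pass. Their median log2 fold change was 0.19, and at an unadjusted p under 0.05 in limma's fit 3 were higher and 0 lower. Of 11 fast fibre genes 3 fell, among them the myosin Myh1 (log2 fold change -0.83 ± 0.13 SE) on its brightest probe set, and 8 did not pass. The median log2 fold change of these was -0.05, and at an unadjusted p under 0.05 in limma's fit 0 were higher and 4 lower. Of 11 skeletal muscle markers 1 rose, Mb, which encodes the oxygen carrier myoglobin (1.16-fold), 2 fell and 8 did not pass. Of 8 heart muscle markers 2 rose, Actc1, the cardiac actin that fetal skeletal muscle also makes (3.85-fold), and Tnnt2, a troponin of heart and fetal muscle (2.37-fold), and 6 did not pass. The natriuretic peptides Nppa and Nppb and the heart myosin Myh6 were among the latter.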
